A study of Danio rerio with 18 samples.

Results

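The genes described here encode the machinery that brings nuclear-encoded proteins into mitochondria. They were followed in zebrafish brain across the genotypes of mfn2, which encodes mitofusin 2, a GTPase of the outer mitochondrial membrane that takes part in fusion of mitochondria. They were chosen by symbol: every gene whose symbol begins with tomm or timm, together with samm50, samm50l, pam16, dnajc19, grpel1, grpel2, pmpca and pmpcb. This gave 34 genes of the 32057 in the table, and all 34 were among the 20353 genes with enough reads to be tested. Their lowest count in any library was 25, and the lowest median count of any of them over the libraries was 66.5.

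Polyadenylated RNA was sequenced from whole brains of 4-month-old siblings that were homozygous for the loss-of-function allele hu3528 of mfn2 (Hom, genotype -/-), heterozygous (Het, +/-) or wild type (WT, +/+). Every parent was heterozygous for hu3528, and each of the 6 families came from 1 mating of its own pair. Fish were genotyped at 2.5 months and then kept in 1 tank per genotype, so tank and genotype are confounded inside each family. Brains of 4 siblings, 2 females and 2 males, were pooled for each of the 18 libraries, 6 per genotype, and the replicates of a genotype are pools from different families.

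Most mitochondrial proteins are made in the cytosol and enter through the TOM complex of the outer membrane. From there, small TIM chaperones hand membrane proteins across the intermembrane space to the SAM complex or the TIM22 complex, while proteins with a cleavable presequence pass through the TIM23 complex, are pulled in by the motor PAM and are trimmed by the mitochondrial processing peptidase. These roles were worked out mostly in yeast and human cells. Neurons depend on this supply along their axons, and mutations of MFN2 in people cause the axonal neuropathy Charcot-Marie-Tooth disease type 2A.

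Levels are given as normalized CPM, that is, counts relative to a library size scaled by TMM. Since no gene lengths enter this unit, levels are compared between libraries and not between genes. Total counts ran from 21945070 to 42897654 per library. The level of mfn2 itself was 25.4 to 34.1 normalized CPM in Hom, 67.8 to 117 in Het and 75.2 to 140 in WT libraries. In family 2 it went against the labels, with 117 normalized CPM in the library labelled Het and 75.2 in the library labelled WT. Outside family 2 the genotypes did not overlap in mfn2. The markers of neurons were present in every library. Hom of family 3, Het of family 1 and Het of family 3 stood apart: their log2 deviations from the median library, over 12976 genes with a median of at least 5 CPM, had an SD of 0.671 to 1.08, against 0.201 to 0.302 in the other 15 libraries. The comparisons and most genes below are therefore also given for the 15 libraries without these 3. That choice rests on the expression values and not on any label.

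In Hom against WT brain the import genes sat slightly low as a group, but no single gene passed edgeR's test once p-values were adjusted over all genes, and 1 passed that of DESeq2. The fitted log2 fold change was below 0 for 32 of the 34 genes, against 44.5% of all genes tested, and its median was -0.18, a change of -11.8%, against 0.04 for all genes. With p-values from edgeR's quasi-likelihood test adjusted over all genes (Benjamini-Hochberg, threshold 0.05), 0 of 34 passed, beside 1.92% of all genes tested (0.423% lower in Hom and 1.49% higher). At an unadjusted edgeR p under 0.05 there were 6 of 34, all with lower values in Hom, where 14.3% of all genes were called and 6.07% in that direction. They were samm50, timm10, timm22, timm17a, timm23a and dnajc19, for which the 95% interval of the fold change lay below 0. DESeq2 called 1 of 34, timm10 with adjusted p = 0.0445, where it called 5.18% of all genes and 1.8% as lower in Hom. In whole brain, fewer cells of a type and less RNA per cell cannot be told apart.

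Without the 3 libraries the median of the import genes in Hom against WT was -0.12, a change of -7.78%, against 0.02 for all genes, and again 32 of 34 had a fold change below 0, against 46.5% of all genes. In this fit 1 gene passed edgeR's test, timm10, which fell in Hom, beside 8.05% of all genes called and 3.29% called lower. Of the 34, 12 had an unadjusted edgeR p under 0.05, all lower in Hom, where 23.4% of all genes were called and 10.8% in that direction. The median also depended on the Hom library of family 3 alone. Without that library it was -0.10 and the median of all genes was -0.0006, against -0.18 and 0.04 with all libraries. On library totals without TMM, with all libraries, the median of the import genes was -0.09 while the median of all genes was 0.12, so that both moved up by a similar amount. In that fit 28 of the 34 genes had a fold change below 0, and 0 of 34 had an unadjusted edgeR p under 0.05. Shares of all genes for these counts are not given.

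Levels of cell type markers also differed between the libraries. The summed level of the 9 neuron marker genes found was 8232 to 9350 normalized CPM in Hom, 10051 to 11527 in Het and 9565 to 10800 in WT libraries, so that all Hom libraries were below all others. The 5 oligodendrocyte marker genes summed to 6274 to 18120 normalized CPM in Hom, 14632 to 27934 in Het and 13087 to 20449 in WT libraries, and these ranges overlapped. The 3 microglia marker genes found summed to 266 to 801 normalized CPM in Hom, 221 to 421 in Het and 178 to 321 in WT libraries, with medians of 686, 243 and 237 in that order. The Hom libraries other than that of family 3 had 554 or more and so lay above every Het and WT library. The 7 radial glia marker genes found summed to 3689 to 4705 normalized CPM in Hom, 3943 to 4975 in Het and 4183 to 5325 in WT libraries, and Hom was below WT in 6 of 6 families. The 2 blood marker genes found summed to 200 to 2925 normalized CPM in Hom, 856 to 3775 in Het and 797 to 2499 in WT libraries, lowest in Hom of family 3. The 5 retina and pineal marker genes summed to at most 48.6 normalized CPM in Hom, 13.7 in Het and 95.4 in WT libraries, and the ranges overlapped. The 4 skeletal muscle marker genes summed to 563 normalized CPM in Het of family 3 and to at most 48.6 in any other library. The 10 oocyte marker genes summed to 112 normalized CPM in Hom of family 3 and to at most 6.50 in any other library. No marker gene found was at 0 in all libraries. The part of these cell type markers in the results was not tested.

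**Figure D1:**
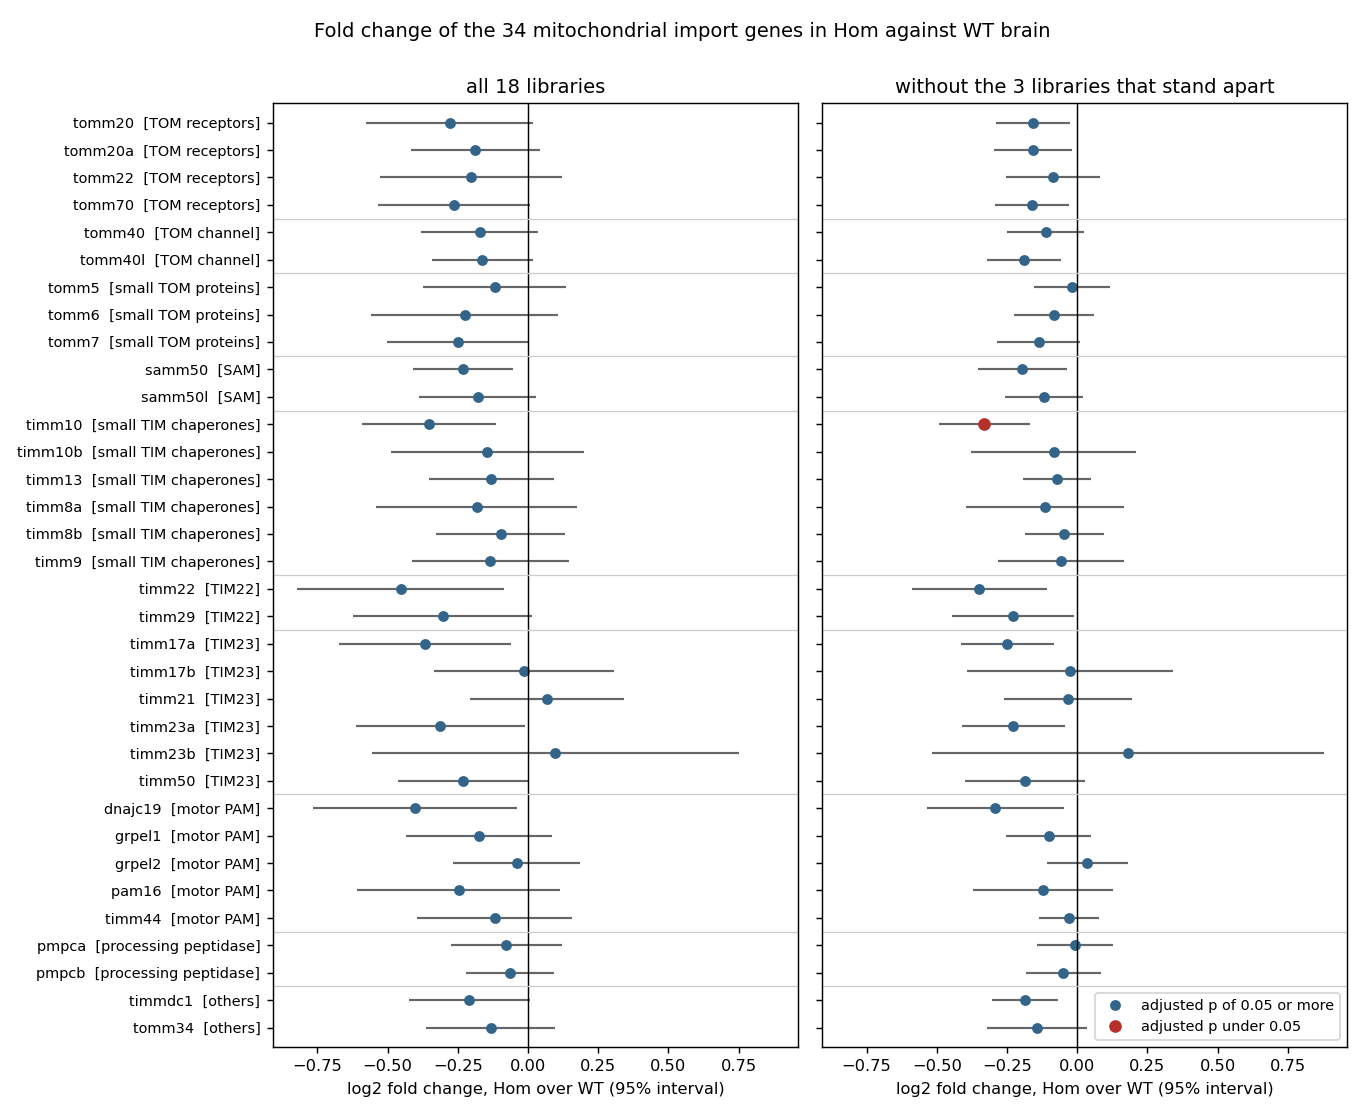
Fitted log2 fold change of each of the 34 import genes in Hom over WT brain (x axis; lines are 95% intervals), ordered by role down the page, with all 18 libraries on the left and without the 3 libraries that stand apart on the right. With all 18 libraries 32 points lie left of 0 and none passes the adjusted test. On the right timm10 is the 1 gene that does.

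The receptors of the TOM complex come first on the import route. tomm20 binds presequences, tomm22 joins the receptors to the channel, and tomm70 takes up hydrophobic precursors together with cytosolic chaperones. All 4 receptor genes had a fold change below 0 in Hom against WT, from -0.28 to -0.19, and 0 passed. tomm70 had the smallest p of them. Its level ran from 42.2 over a median of 65.2 to 68.6 normalized CPM in Hom, from 66.1 over 75.9 to 93.3 in Het and from 64.0 over 74.5 to 81.6 in WT libraries. Hom of family 3 was far below the other Hom libraries, and the Hom and WT ranges overlapped only through the WT library of family 6. The log2 fold change of tomm70 in Hom against WT was -0.26 ± 0.13 (SE), with adjusted p = 0.364 by edgeR, and its value was lower in Hom in 6 of 6 families. In family 2, where mfn2 went against the labels, tomm70 had 66.4 in Hom, 66.1 in the library labelled Het and 75.1 in that labelled WT. The 15 libraries gave -0.16 ± 0.06, with adjusted p = 0.127 by edgeR.

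tomm20 had 49.1 to 106 normalized CPM in Hom, 107 to 135 in Het and 94.9 to 129 in WT libraries, so that all Hom libraries were below all Het libraries while Hom and WT overlapped. Its log2 fold change in Hom against WT was -0.28 ± 0.14, and -0.16 ± 0.06 without the 3 libraries. The same quantity was -0.19 ± 0.11 for its paralogue tomm20a and -0.20 ± 0.15 for tomm22, and -0.16 ± 0.06 and -0.09 ± 0.08 without the 3 libraries. In the 15 libraries the intervals of tomm20, tomm20a and tomm70 lay below 0, while that of tomm22 spanned it.

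tomm40 encodes the channel that precursors pass through, and tomm40l encodes a channel protein related to it. tomm40l had 52.2, 51.0, 56.0, 47.8, 49.8 and 53.6 normalized CPM in the Hom libraries of families 1 to 6. It had 57.5, 56.9, 50.7, 61.3, 63.6 and 59.5 in the Het libraries, and 57.7, 58.0, 55.9, 53.6, 55.4 and 67.5 in the WT libraries. It was 1 of the genes for which Hom of family 3 was not low: that library was the highest of the Hom group. Without it, every Hom library was below every WT library by a narrow margin, with 53.6 normalized CPM at the edge of both groups, a separation seen for 1 of the 34 genes and for 1.74% of all genes. For tomm40l the log2 fold change in Hom against WT was -0.16 ± 0.08 with all libraries (adjusted p = 0.401 by edgeR) and -0.19 ± 0.06 without the 3 (adjusted p = 0.0806 by edgeR). tomm40 had -0.17 ± 0.10 and -0.11 ± 0.06.

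The small TOM proteins tomm5, tomm6 and tomm7 steady the TOM complex and tune its assembly. tomm7 had 34.6, 37.6, 21.9, 38.01, 35.4 and 37.2 normalized CPM in the Hom libraries of families 1 to 6. It had 52.1, 43.6, 40.4, 45.4, 41.0 and 41.7 in the Het libraries, and 35.7, 39.6, 37.8, 39.4, 39.1 and 49.5 in the WT libraries. All Hom values were below all Het values, but the WT libraries of families 1 and 3 lay within the Hom range. In Hom against WT the log2 fold change of tomm7 was -0.25 ± 0.12, with adjusted p = 0.358 by edgeR, and -0.14 ± 0.07 without the 3 libraries. tomm6, at -0.22 ± 0.15, and tomm5, at -0.12 ± 0.12, came to -0.08 ± 0.07 and -0.02 ± 0.06 without them.

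samm50 encodes the core of the SAM complex, which builds barrel proteins into the outer membrane. Its level was 48.7, 53.7, 41.1, 48.1, 50.7 and 49.1 normalized CPM in the Hom libraries of families 1 to 6. It was 52.5, 61.4, 45.8, 60.3, 51.0 and 47.9 in the Het libraries, and 55.5, 55.7, 52.5, 55.6, 58.9 and 62.7 in the WT libraries. The Hom and WT groups overlapped through 1 pair, the Hom library of family 2 and the WT library of family 3, whereas Het values spread over both. Its log2 fold change in Hom against WT was -0.23 ± 0.08 (95% interval -0.41 to -0.05), lower in 6 of 6 families, with adjusted p = 0.224 by edgeR. It was -0.20 ± 0.07 without the 3 libraries, so this value depended little on them. The paralogue samm50l had -0.18 ± 0.10, and -0.12 ± 0.06 without them.

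The small TIM chaperones shuttle hydrophobic precursors through the intermembrane space, timm9 with timm10 and timm8a or timm8b with timm13. All 6 genes had a fold change below 0 in Hom against WT, with a median of -0.14. timm10 had the smallest p of all 34 genes. Its level was 38.1, 41.2, 27.9, 38.7, 37.8 and 35.6 normalized CPM in the Hom libraries of families 1 to 6, 57.3, 50.6, 52.6, 48.9, 43.1 and 42.5 in the Het libraries, and 49.6, 48.8, 37.4, 42.7, 46.4 and 55.0 in the WT libraries. Every Hom value was below the WT value of its own family and below every Het value. The Hom and WT groups overlapped through the WT library of family 3, at 37.4.

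Mean timm10 was 36.6 ± 4.59 normalized CPM in Hom, 49.2 ± 5.69 in Het and 46.7 ± 6.08 in WT libraries (SD, n = 6 each). The log2 fold change of timm10 in Hom against WT was -0.35 ± 0.11 (95% interval -0.59 to -0.11), a change of -21.7%, with adjusted p = 0.150 by edgeR. Without the 3 libraries it was -0.33 ± 0.07 (95% interval -0.49 to -0.17), with adjusted p = 0.0182 by edgeR. The size thus stayed near -0.35 while its SE became smaller, and over all alternatives run the fold change of timm10 lay between -0.39 and -0.26. A smaller SE was not particular to timm10: the median SE of the import genes was 0.12 with all libraries and 0.07 without the 3. Those libraries were left out because their expression values deviated. Its partner timm9 had -0.13 ± 0.13, or -0.06 ± 0.10 without the 3 libraries, and 3 of 6 families were lower in Hom.

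Of the other chaperones, timm8a had a log2 fold change of -0.18 ± 0.17 in Hom against WT, timm8b of -0.10 ± 0.11, timm13 of -0.13 ± 0.10 and timm10b of -0.15 ± 0.16. timm13 was lower in Hom in 6 of 6 families, by small amounts. In the 15 libraries these 4 values lay between -0.11 and -0.05, with intervals that spanned 0.

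The TIM22 complex places carrier proteins in the inner membrane. timm22 encodes its channel and timm29 a further subunit, known from human cells. timm22 had 6.69, 7.46, 3.83, 7.42, 7.08 and 6.49 normalized CPM in the Hom libraries of families 1 to 6, 10.96, 9.63, 9.89, 8.36, 7.16 and 7.96 in the Het libraries, and 6.84, 9.89, 7.63, 9.28, 8.28 and 11.2 in the WT libraries. Of the WT libraries, family 1 lay within the Hom range and the other 5 lay above it. In the fit, timm22 had a log2 fold change in Hom against WT of -0.45 ± 0.17 (95% interval -0.82 to -0.08), the most negative of the 34, with adjusted p = 0.247 by edgeR. It was -0.35 ± 0.11 without the 3 libraries, with adjusted p = 0.0746 by edgeR. timm29 had -0.30 ± 0.15, and -0.23 ± 0.10 without them, and both genes were lower in Hom in 6 of 6 families.

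In the TIM23 complex, timm23a and timm23b encode the channel subunit, timm17a and timm17b its partner, timm50 the receptor that meets presequences, and timm21 a subunit that contacts TOM and the respiratory chain. Here the fitted values in Hom against WT differed between paralogues, with wide 95% intervals for timm17b (-0.33 to 0.31) and timm23b (-0.56 to 0.75). timm17a had 140, 126, 56.2, 106, 123 and 136 normalized CPM in the Hom libraries of families 1 to 6, 181, 152, 147, 149, 159 and 158 in the Het libraries, and 147, 134, 113, 122, 166 and 189 in the WT libraries. Every Hom library was below every Het library and below the WT library of its own family, and the Hom and WT ranges overlapped. In Hom against WT the log2 fold change of timm17a was -0.37 ± 0.14 (95% interval -0.67 to -0.06), with adjusted p = 0.257 by edgeR. The 15 libraries gave -0.25 ± 0.08, with adjusted p = 0.0665 by edgeR.

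timm23a had 34.9 to 63.7 normalized CPM in Hom, 61.7 to 88.9 in Het and 58.6 to 88.5 in WT libraries, with a log2 fold change in Hom against WT of -0.31 ± 0.14 (95% interval -0.61 to -0.01), and -0.23 ± 0.08 without the 3 libraries. The other paralogue of each pair was measured from few reads. timm17b had 2.98 to 4.27 normalized CPM in Hom, 2.24 to 5.45 in Het and 2.32 to 5.31 in WT libraries, and its log2 fold change in Hom against WT was -0.01 ± 0.15, and -0.03 ± 0.17 without the 3 libraries. This gene lies on chromosome 8 in build GRCz12tu, as mfn2 does, and the part of this in its values was not tested. No chromosome was available there for tomm20 and tomm70. timm23b had 0.887 to 5.26 normalized CPM in Hom, 1.42 to 3.12 in Het and 1.39 to 4.40 in WT libraries, with a log2 fold change of 0.10 ± 0.30, and the Hom group held both its lowest and its highest library. The log2 ratio of timm17a to timm17b differed between Hom and WT of the same family by -0.35 ± 0.52 (mean ± SD over 6 families), and that of timm23a to timm23b by -0.37 ± 0.54. Both differences were smaller than their SD between families. The ratio was lower in Hom in 4 of 6 families for timm17a to timm17b and in 5 of 6 for timm23a to timm23b. Without family 3 the means were -0.21 and -0.33, with lower ratios in Hom in 3 and 4 of the other 5 families. For the other paralogue pairs computed, the mean over 6 families ran from -0.21 (timm10 to timm10b) to 0.11 (tomm20a to tomm20), each smaller than its SD. Their ratios were lower in Hom in 2 (tomm40 to tomm40l) to 5 (grpel1 to grpel2, timm10 to timm10b) of 6 families.

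timm50 had a log2 fold change of -0.23 ± 0.11 in Hom against WT, and -0.19 ± 0.10 without the 3 libraries. timm21, at 0.07 ± 0.13, and timm23b were the 2 genes with a value above 0. In the 15 libraries timm21 came to -0.03 ± 0.10, and the genes above 0 were timm23b, at 0.18 ± 0.32, and grpel2, at 0.04 ± 0.07.

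The motor PAM pulls precursors into the matrix. timm44 anchors the matrix chaperone to the channel, dnajc19 and pam16 set its activity as J-domain and J-like proteins, and grpel1 and grpel2 exchange its nucleotide. dnajc19 had 11.9, 11.7, 7.06, 11.8, 14.3 and 11.1 normalized CPM in the Hom libraries of families 1 to 6, 18.6, 15.6, 18.7, 15.1, 16.9 and 11.2 in the Het libraries, and 11.6, 13.2, 13.9, 14.5, 19.4 and 16.9 in the WT libraries. Hom was below WT in families 2 to 6 and about equal to it in family 1. Its log2 fold change in Hom against WT was -0.40 ± 0.17 (95% interval -0.77 to -0.04), with adjusted p = 0.296 by edgeR, and -0.29 ± 0.11 without the 3 libraries.

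For pam16 the log2 fold change in Hom against WT was -0.25 ± 0.17, for grpel1 -0.17 ± 0.12, for timm44 -0.12 ± 0.13 and for grpel2 -0.04 ± 0.10. In pam16, Hom of family 3 had 8.003 normalized CPM and the other Hom libraries 15.6 to 20.1. The level of pam16 was lower in Hom in 4 of 6 families, and without the 3 libraries its fold change was -0.12 ± 0.11. timm44 came to -0.03 ± 0.05 and grpel1 to -0.10 ± 0.07 without them.

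pmpca and pmpcb encode the subunits of the peptidase that removes presequences, and pmpcb carries its catalytic site. Their median log2 fold change in Hom against WT, -0.07, was nearer to 0 than that of any other role. pmpcb ran from 33.7 over a median of 37.6 to 40.2 normalized CPM in Hom, from 37.7 over 39.0 to 42.9 in Het and from 33.3 over 38.4 to 47.5 in WT libraries, and the groups overlapped throughout. Its log2 fold change in Hom against WT was -0.06 ± 0.07 (95% interval -0.22 to 0.09), with adjusted p = 0.716 by edgeR. On library totals without TMM it was 0.02, in a fit that moved the median of all genes up by 0.0821. For pmpca it was -0.08 ± 0.09, and -0.01 ± 0.06 without the 3 libraries.

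Finally, 2 genes carry the symbols without being subunits of these complexes. tomm34 encodes a cytosolic cochaperone, and timmdc1 encodes an assembly factor of respiratory complex I. timmdc1 had 32.0, 28.6, 22.5, 29.0, 30.0 and 30.1 normalized CPM in the Hom libraries of families 1 to 6. It had 35.7, 33.8, 39.0, 30.4, 33.3 and 31.4 in the Het libraries, and 36.3, 32.9, 27.6, 35.2, 33.5 and 33.4 in the WT libraries. Each Hom library was below both siblings' libraries of its family, and the WT library of family 3 lay within the Hom range. In Hom against WT the log2 fold change of timmdc1 was -0.21 ± 0.10 (adjusted p = 0.366 by edgeR) and -0.18 ± 0.05 without the 3 libraries (adjusted p = 0.0572 by edgeR). tomm34 had -0.13 ± 0.11, and -0.14 ± 0.08 without them.

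**Figure D2:**
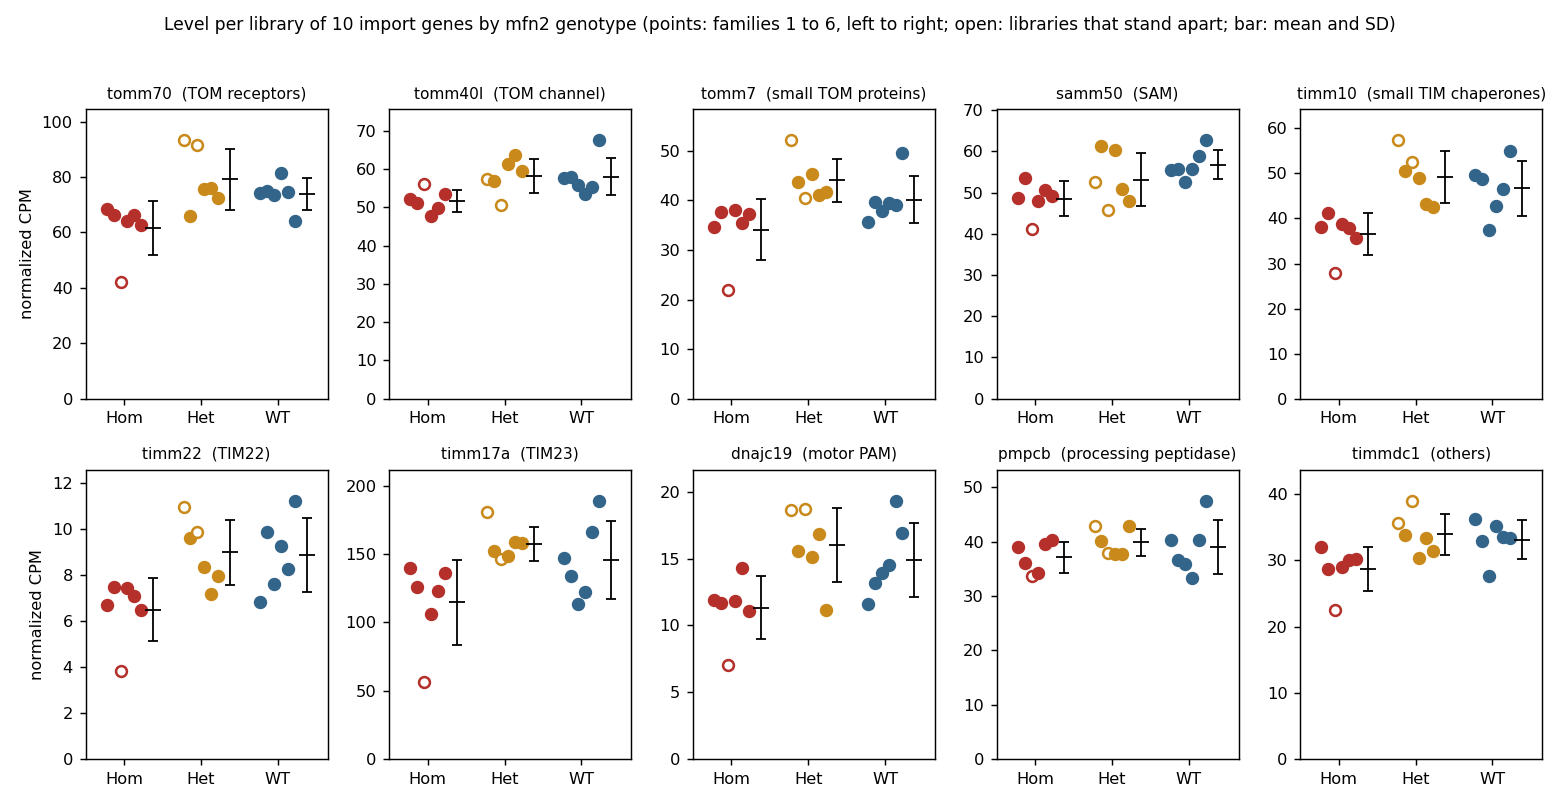
Normalized CPM (y axis, from 0) of 10 import genes in each library by mfn2 genotype; points are families 1 to 6 from left to right, open points the 3 libraries that stand apart, and the bar is the mean and SD over 6 libraries. The open Hom point of family 3 is the lowest Hom point in every panel but that of tomm40l, and the Hom points of tomm7, timm10 and timm17a all lie below the Het points.

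The summed level of the 34 genes was 1238 ± 191 normalized CPM in Hom, 1509 ± 121 in Het and 1429 ± 139 in WT libraries (SD, n = 6 each). Every Hom sum was below every Het sum and below the WT sum of its own family, while the Hom and WT ranges overlapped. Hom of family 3 had the lowest value of all 18 libraries for 28 of the 34 genes and a sum of 856. Het of family 1 had the highest for 14 genes and a sum of 1734, and WT of family 6 the highest for 8 genes and a sum of 1653. For these counts of lowest and highest values no share over all genes is given, so they describe the 34 genes only. Hom of family 3 and Het of family 1 also stood apart over all genes, so such extremes may not be particular to the import genes. Over the 15 libraries the sums were 1315 ± 43.2 in Hom (n = 5), 1441 ± 28.5 in Het (n = 4) and 1429 ± 139 in WT libraries (n = 6).

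Within families, the median difference of the 34 genes between the Hom and WT libraries, on log2 of normalized CPM plus 0.5, was -0.09, -0.05, -0.44, -0.05, -0.16 and -0.26 in families 1 to 6. It was below 0 in each family, and in those families 27, 26, 31, 21, 29 and 32 of the 34 genes had the lower value in Hom. Of all genes tested, 50.2%, 49.2%, 52.0%, 49.7%, 50.9% and 47.3% had the lower value in Hom in the same order. Their median difference lay between -0.04 and 0.02. The difference of the 34 genes was widest in family 3, which holds the deviating Hom library. It was next widest in family 6, where the WT library was high. Lower values in Hom in 6 of 6 families were found for 12 of the 34 genes, against 8.14% of all genes, and in at least 5 families for 22, against 20.9%. For 0 of the 34 genes did all Hom libraries lie below all WT libraries, beside 1.42% of all genes.

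**Figure D3:**
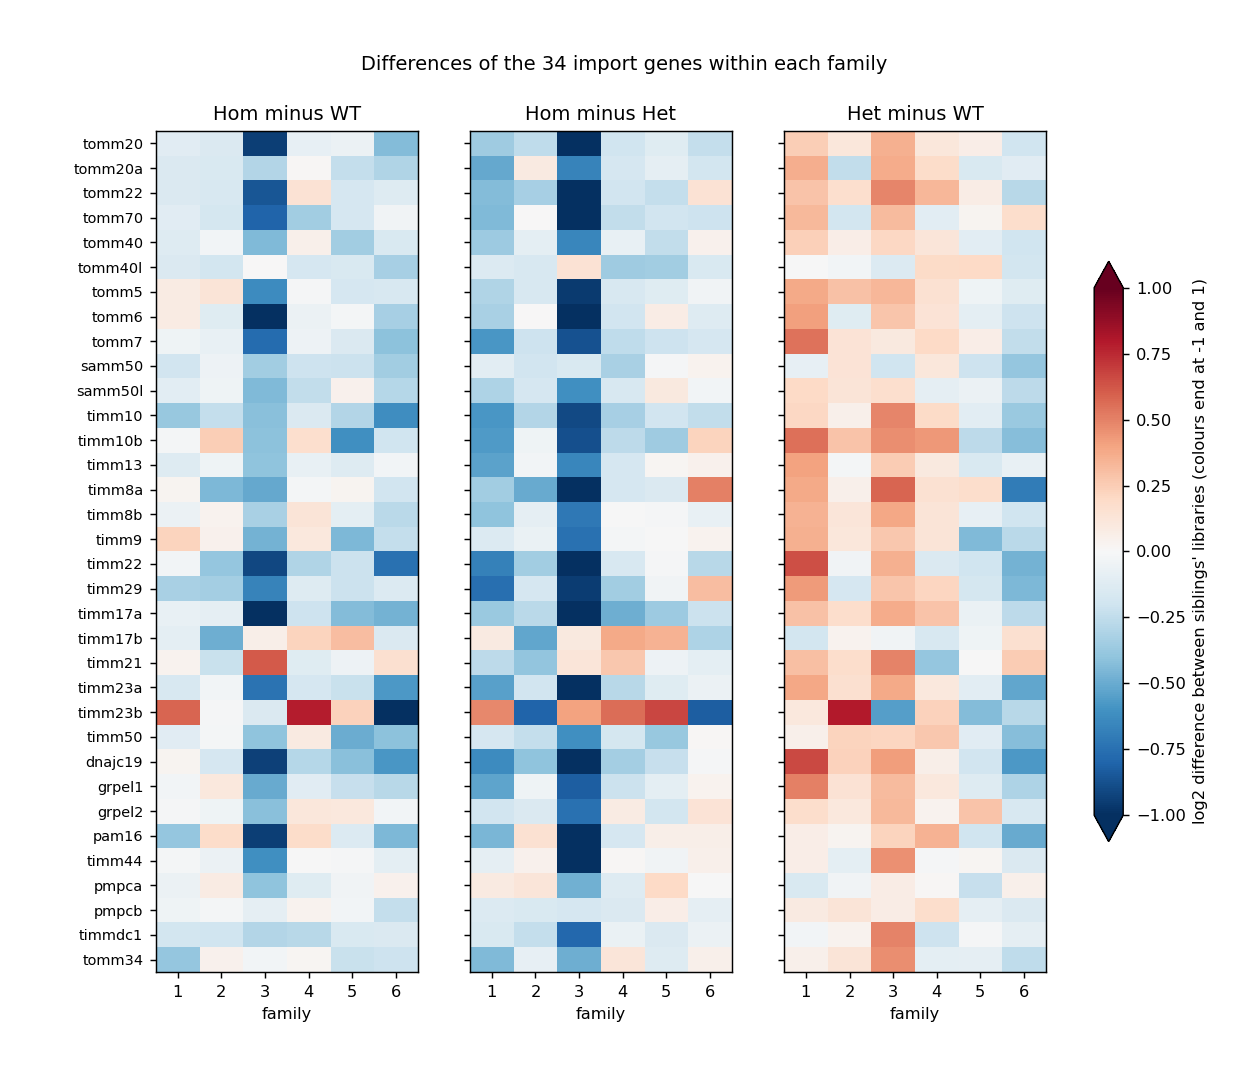
Difference in log2 normalized CPM between siblings' libraries of each family (columns) for each of the 34 import genes (rows, by role): Hom minus WT, Hom minus Het and Het minus WT from left to right, blue below 0 and red above 0. In the left panel family 3 is darkest. In the right panel families 1 to 4 are mostly red and families 5 and 6 mostly blue.

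Against Het brain, Hom brain had lower fitted values by a wider margin with all libraries, and that margin shrank most without the 3 that stand apart. The Hom libraries are the same as above, so this comparison is not independent of the one with WT. The log2 fold change was below 0 for 32 of the 34 genes, against 44.6% of all genes, with a median of -0.26 against 0.06 for all genes. By edgeR's adjusted test 0 of 34 passed, beside 1.99% of all genes (0.801% lower in Hom and 1.19% higher), and 17 of 34 had an unadjusted p under 0.05, all lower in Hom, where 21.8% of all genes were called and 11.3% in that direction. DESeq2 called 3 of 34, all lower in Hom, where it called 7.99% of all genes and 4.11% as lower: tomm7 (adjusted p = 0.0330), timm10 (adjusted p = 0.00629) and timm17a (adjusted p = 0.0146).

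These 3 genes and tomm20 were the 4 of 34 for which all 6 Hom libraries lay below all 6 Het libraries, beside 1.96% of all genes. Lower values in Hom than in the Het sibling library were found in 6 of 6 families for 10 genes, against 7.83% of all genes, and in at least 5 families for 24, against 19.6%. In Hom against Het the log2 fold change of timm10 was -0.44 ± 0.11 with adjusted p = 0.0627 by edgeR, that of timm17a -0.51 ± 0.14 with adjusted p = 0.0918, that of tomm7 -0.38 ± 0.12 with adjusted p = 0.116 and that of tomm20 -0.40 ± 0.14 with adjusted p = 0.144. The most negative value was that of dnajc19, at -0.52 ± 0.17. Nearest to 0 among the values below it were those of pmpca, at -0.03 ± 0.09, and timm21, at -0.07 ± 0.13, while timm17b and timm23b were above 0.

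Single libraries decided the edgeR calls here. Without the Hom library of family 3, timm17a passed with adjusted p = 0.0462 by edgeR, and without the Het library of family 6, timm10 passed with adjusted p = 0.0477 by edgeR. Without the 3 libraries that stand apart 0 of 34 passed edgeR's test, beside 4.77% of all genes called and 1.83% called lower. An unadjusted p under 0.05 was found for 6 of 34, all lower in Hom, against 19.1% of all genes in either direction and 8.79% in that direction. The median was then -0.08, against 0.01 for all genes, and 30 of 34 values were below 0, against 48.2% of all genes. Without the 3 libraries the log2 fold changes in Hom against Het were -0.30 ± 0.08 for timm17a, -0.27 ± 0.08 for timm10, -0.24 ± 0.07 for tomm40l, -0.19 ± 0.07 for tomm7 and -0.19 ± 0.07 for tomm20. For these 5 genes every remaining Hom library was below every remaining Het library, as was the case for 3.09% of all genes.

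No import gene separated Het from WT brain at this number of pools. By edgeR's adjusted test 0 of 34 passed, beside 0% of all genes, and 0 had an unadjusted p under 0.05 with or without the 3 libraries, where 2.57% of all genes had one with all libraries and 2.83% without the 3. DESeq2 called 0 of 34 and 0.00983% of all genes. The log2 fold change was below 0 for 5 of 34 genes, with a median of 0.07, beside 48% of all genes. In the 15 libraries, which lack 2 Het pools, it was below 0 for 23 of 34, beside 48% of all genes, with a median of -0.04, so that the sign of this small value differed between the fits. Leaving out the Het library of family 3 alone gave -0.0079. Over all 34 genes and all libraries the 95% intervals of Het against WT reached from -0.67 to 0.63, both ends belonging to timm23b.

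The families disagreed as well, and the values of family 2 rest on its libraries labelled WT and Het, whose mfn2 levels go against their labels. The median difference of the 34 genes between the Het and WT libraries was 0.29, 0.11, 0.32, 0.12, -0.10 and -0.25 in families 1 to 6. In the same order the median difference between the Hom and Het libraries was -0.36, -0.16, -0.80, -0.17, -0.11 and -0.03. Without the WT and Het libraries of family 2 the median fold change of the 34 genes was 0.09 in Het against WT, -0.27 in Hom against Het and -0.21 in Hom against WT. In 29 of the 34 genes the Het group had the highest mean of the 3 genotypes with all libraries, and in 14 without the 3. Hom had the lowest mean in 32 of the 34 genes with all libraries and in 29 without the 3. No share over all genes stands beside these orders of the means, so they describe the 34 genes only.

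Other genes of the import pathway also had a median below 0 in Hom against WT. A list of 29 partner names, covering the intermembrane oxidoreductase pathway, metaxins, matrix and cytosolic chaperones, inner membrane proteases and the MICOS scaffold, matched 37 genes through 28 of the names, and all 37 were tested. In Hom against WT 0 of 37 passed edgeR's adjusted test, beside 1.92% of all genes, with a median log2 fold change of -0.11 and 26 of 37 below 0, beside 44.5% of all genes. In the fit of 15 libraries 2 fell and 0 rose, beside 8.05% of all genes called and 3.29% called lower, and the median was -0.05. They were yme1l1 (ENSDARG00000104401), an inner membrane protease that degrades import subunits in human cells, at -0.22 ± 0.06 with adjusted p = 0.0409 by edgeR, and mtx2, a metaxin of the outer membrane that works with SAM, at -0.22 ± 0.06 with adjusted p = 0.0460 by edgeR.

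yme1l1 (ENSDARG00000104401) had 44.7, 43.1, 38.3, 41.5, 39.0 and 44.7 normalized CPM in the Hom libraries of families 1 to 6, and 50.0, 47.3, 49.9, 45.2, 54.0 and 53.3 in the WT libraries. mtx2 had 58.6, 62.2, 36.4, 58.9, 59.1 and 60.9 normalized CPM in the Hom libraries, and 72.1, 66.2, 63.1, 67.0, 72.0 and 74.0 in the WT libraries. For both genes all 6 Hom libraries were below all 6 WT libraries, as was the case for 1.42% of all genes. The margins were narrow, with 44.7 against 45.2 normalized CPM for yme1l1 (ENSDARG00000104401) and 62.2 against 63.1 for mtx2. With all libraries the log2 fold change of yme1l1 (ENSDARG00000104401) was -0.25 ± 0.07 (adjusted p = 0.122 by edgeR) and that of mtx2 -0.31 ± 0.12 (adjusted p = 0.252 by edgeR). The other 3 of the 5 smallest p values belonged to dnaja3, a matrix J-domain cochaperone, at -0.24 ± 0.08, hspa8 (ENSDARG00000037403), a cytosolic chaperone, at -0.49 ± 0.20, and immt, the MICOS core protein, at -0.36 ± 0.16. Without the 3 libraries these values were -0.17 ± 0.05 for dnaja3, -0.33 ± 0.12 for hspa8 (ENSDARG00000037403) and -0.19 ± 0.07 for immt. The second yme1l1 gene (ENSDARG00000075192) went the other way in Hom against WT, at 0.07 ± 0.10, and 0.17 ± 0.07 without the 3 libraries. For the second hspa8 gene (ENSDARG00000068992) the values were -0.22 ± 0.18 and -0.06 ± 0.07. The other MICOS genes did not share a direction in Hom against WT with all libraries. Values were 0.22 ± 0.19 for apool, 0.17 ± 0.12 for chchd3, 0.14 ± 0.19 for chchd3b, -0.24 ± 0.15 for chchd6a and -0.01 ± 0.12 for chchd6b. apool was lower in Hom in 0 of 6 families.

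The median of the import genes was nearer to 0 than those of 2 other groups of nuclear genes for mitochondrial proteins. In Hom against WT the median log2 fold change was -0.18 for the 34 import genes, -0.35 for 39 subunit genes of respiratory complex I and -0.26 for 75 genes of the mitochondrial ribosome. From the 15 libraries the medians were -0.12, -0.19 and -0.14 in that order. In no list did a gene pass edgeR's adjusted test with all 18 libraries, beside 1.92% of all genes. Without the 3 libraries 1 of 34 import genes, 9 of 39 complex I genes and 3 of 75 ribosomal genes passed, all lower in Hom, beside 8.05% of all genes called and 3.29% called lower. In Hom against Het the medians in the same order were -0.26, -0.46 and -0.36, and -0.08, -0.18 and -0.12 without the 3 libraries. The lists were not tested against each other, and their medians share the same libraries.

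**Figure D4:**
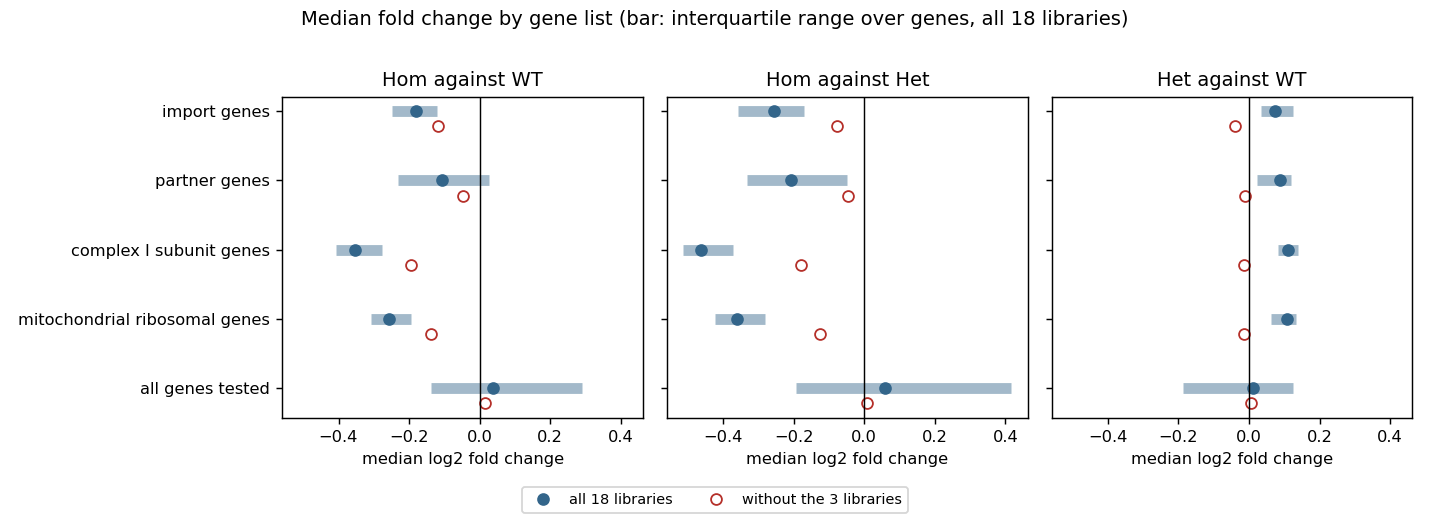
Median log2 fold change (x axis) of the import genes, their partners, complex I subunit genes, mitochondrial ribosomal genes and all genes tested, for each pair of genotypes; filled points and bars (interquartile range over genes) use all 18 libraries, open points leave out the 3 that stand apart. In both panels with Hom the mitochondrial lists lie left of all genes and the open points lie nearer to 0; in Het against WT the open points of these lists cross to the left of 0.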

How the data were processed

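The values are whole-number counts per gene that the authors deposited without normalization for pooled zebrafish brains. STAR 2.7.0a, featureCounts of Subread 1.5.2 and build GRCz11 are named in the submitters' processing notes. For the annotation release, the strand setting and reads mapping to several places, no source used here gives a statement, so paralogues and overlapping genes may share reads. Symbols came from a name table that covered 28988 of 32057 IDs; tomm20 and tomm70 are printed as it gives them. All columns were matched to samples by name.

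The whole table was tested with edgeR 4.0.16 (R 4.3.3) by the quasi-likelihood test, with TMM, filterByExpr (minimum count 10, minimum total 15), prior count 0.125 and a model of genotype and family over 18 libraries, Benjamini-Hochberg adjusted over 20353 genes at 0.05. SE is the log2 fold change over the root of F. The test was checked on simulated data. DESeq2 1.42.0, other scalings and filters, and leaving out libraries were the alternatives. Family is a single mating per the submitters' design text, so it was kept as the pairing block. Deviations of same-family libraries from their genotype means had a median correlation of 0.194, against -0.09 in the 90 pairs of different family and genotype. Deviations within a genotype sum to 0, so a positive value in the former lowers the latter, which is no independent reference. Of the 18 same-family pairs, 7 had a correlation below 0.1. No 2 libraries of a genotype agreed within counting noise (lowest chi-square per degree of freedom 17.1).

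Members, lists and role groups were chosen with earlier results of these data known. Library values were given for each gene passing in any comparison, with or without the 3 libraries. They were also given for the gene of smallest p in Hom against WT per role, with tomm70 and pmpcb as range and median in the text. Partner genes named are the 5 of smallest p, with the second genes of the names yme1l1 and hspa8 and the other MICOS genes of the list. Values of other genes were chosen after they were seen. Precision is limited by 6 pools per genotype.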

Additional observations from a re-analysis of the deposited data

Results flagged for a closer look

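Of 102 groups of 6 libraries (34 genes in 3 genotypes), 16 held a library far from the rest by Dixon's criterion, which chance alone meets in about 1 in 20 groups. The groups share the same 18 libraries, and no share over all genes stands beside the 16. In 12 of the 16 the library far from the rest was the Hom library of family 3, which stood apart over all genes. In normalized CPM it was always below the other 5 Hom libraries. In the outer membrane genes it had 49.1 for tomm20 (others 94.9 to 106), 43.8 for tomm22 (77.1 to 82.2), 42.2 for tomm70 (62.6 to 68.6), 25.4 for tomm6 (53.8 to 64.3) and 21.9 for tomm7 (34.6 to 38.01). In the genes of the inner route it had 20.9 for timm8b (29.4 to 32.0), 3.83 for timm22 (6.49 to 7.46), 34.9 for timm23a (57.8 to 63.7), 23.6 for timm44 (36.7 to 43.4) and 8.003 for pam16 (15.6 to 20.1). It had 20.1 for pmpca (26.5 to 29.3) and 22.5 for timmdc1 (28.6 to 32.0). The same library summed to 112 normalized CPM over 10 oocyte marker genes, where no other library exceeded 6.50; the part of this in the values was not tested.

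The Het library of family 1 was high for timm17a, at 181 normalized CPM (other Het libraries 147 to 159), and for tomm6, at 80.6 (58.5 to 64.4). The WT library of family 6 was high for tomm40l, at 67.5 (other WT libraries 53.6 to 58.0), and for tomm7, at 49.5 (35.7 to 39.6).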

How the results depend on the processing

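The count of import genes past the test in Hom against WT was 0 with all libraries, 1 with DESeq2 and 1 without the 3 libraries that stand apart (timm10 both times), and 0 when any 1 library or family was left out. In Hom against Het it was 3 with DESeq2 and 0 to 1 when 1 library or family was left out, the calls being timm17a without the Hom library of family 3 and timm10 without the Het library of family 6. In Het against WT it was 0 under every alternative run. The median in Hom against WT ran from -0.21 to -0.10 when 1 library or family was left out. The value of -0.10 was that without the Hom library of family 3, where the median of all genes was -0.0006. Without the libraries labelled WT and Het of family 2 the median was -0.21, and those of Hom against Het and Het against WT were -0.27 and 0.09. The median in Hom against Het ran from -0.31 to -0.14, and was -0.08 without the 3 libraries. In Het against WT it ran from -0.0079 to 0.13, -0.0079 being the value without the Het library of family 3, and was -0.0404 without the 3 libraries. On library totals without TMM the medians were -0.09 in Hom against WT and -0.17 in Hom against Het, where the medians of all genes moved up by 0.0821 and 0.0888 to 0.12 and 0.15, and pmpcb in Hom against WT, moving by about that shift, reversed to 0.0195. In these fits 0 and 3 of the 34 genes had an unadjusted edgeR p under 0.05, against 6 and 17 with TMM. Without the family block the medians were -0.18, -0.25 and 0.06 in the order above, with 0 calls each, so the pairing changed no call. The causes were not tested. For Het against WT, fold changes of single genes under the alternatives are not given here.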
